A study of Mus musculus with 4 samples.

Results

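The gene group described here holds 83 protein-coding genes on chromosomes 1 to 19 whose transcripts were at least 2 times as abundant in pachytene spermatocytes of homozygous Ddx4 knock-in mice (KK) as in those of wild-type mice (WT). Members were chosen from the TPM values (transcripts of the gene per fixed total of transcripts, corrected for length) of all 4 libraries. A protein-coding gene (GENCODE M21) on these chromosomes was eligible if it had at least 5 TPM in both WT libraries, which held for 8173 of the 55364 genes in the table. A member's lower KK value was in addition at least 2 times its higher WT value, and 4 genes that pass this rule, Tex101, Insl3, Rpl10a and Ptgds, were left out. The members were 1.02% of the eligible genes. The same rule turned around, with the lower WT value at least 2 times the higher KK value, found 5 genes, among them Ddx4 itself. Because the KK and WT values chose the members, their differences between genotypes are a description and not a test.

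The study compared 2 WT with 2 KK libraries of total RNA from pachytene spermatocytes, which its authors separated from testis by centrifugal elutriation after collagenase and trypsin digestion and checked by DAPI staining. The labels give no age or strain. They do not say whether replicates are separate animals, so p-values measure the spread between the 4 samples only, and that spread may be technical. The library kit does not mark strand, so reads of overlapping or antisense genes cannot be told apart. The sequence inserted at Ddx4 was not analysed here.

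Pachytene spermatocytes are male germ cells in the long stage of meiotic prophase in which homologous chromosomes are fully paired. They transcribe many genes whose products are needed only later, in spermatids and sperm, and store much of that RNA. Ddx4 encodes an RNA helicase of germ granules, the cytoplasmic bodies in which piRNAs and messenger RNAs of germ cells gather.

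Ddx4, the targeted gene, read 264.96 and 272.92 TPM in WT against 54.44 and 52.49 TPM in KK. Its log2 fold change was -2.34 ± 0.04 (SE, n = 2 against 2), with an adjusted p of 6.8e-27 in edgeR's quasi-likelihood test with Benjamini-Hochberg adjustment. Library totals ranged from 17970207 to 19438570 expected counts. The 28 pachytene marker genes were all detected, with summed levels of 25897 and 25704 TPM in WT and 23705 and 23443 TPM in KK. Of these markers 4 were higher and 18 lower in KK by the same test, at a median log2 change of -0.17 against 0.0033 over all genes tested. In bulk samples, fewer cells of a type and less RNA per cell cannot be told apart.

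Promoter sequences of the members on which the description turns come first, because their CpG content is a property outside the rule in which the members differed widely from other eligible genes. The RefSeq table of GRCm38.p6 held a promoter for 64 of the 83 members and for 6493 of the 8173 eligible genes. The 5 sequences below end at the base before the start of the leading GENCODE transcript and are read on the gene's strand; all 5 genes lie on the minus strand. Capitals mark matches to the motifs searched on both strands. Lcn2 (chr2:32387798-32387989) had the largest ratio and Agt (chr8:124569707-124569956) the largest among members on the Leydig cell marker list. Gstm1 (chr3:108017974-108018223) and Gstm2 (chr3:107986454-107986670) are neighbouring paralogues with nearly the same ratio, and Dusp1 (chr17:26508520-26508722) is an immediate early gene.
Lcn2: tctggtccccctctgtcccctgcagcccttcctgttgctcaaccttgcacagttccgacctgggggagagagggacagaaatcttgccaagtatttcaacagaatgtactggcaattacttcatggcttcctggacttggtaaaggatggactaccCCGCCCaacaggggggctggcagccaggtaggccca
Agt: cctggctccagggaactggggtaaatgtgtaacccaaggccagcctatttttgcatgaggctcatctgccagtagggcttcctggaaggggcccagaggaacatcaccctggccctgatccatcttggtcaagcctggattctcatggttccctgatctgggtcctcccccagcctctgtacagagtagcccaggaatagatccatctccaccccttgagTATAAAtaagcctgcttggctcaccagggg
Gstm1: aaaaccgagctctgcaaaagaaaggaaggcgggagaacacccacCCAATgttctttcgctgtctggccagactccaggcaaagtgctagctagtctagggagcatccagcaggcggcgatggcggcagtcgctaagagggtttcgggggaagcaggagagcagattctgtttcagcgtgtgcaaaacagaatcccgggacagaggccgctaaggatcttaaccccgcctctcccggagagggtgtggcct
Gstm2: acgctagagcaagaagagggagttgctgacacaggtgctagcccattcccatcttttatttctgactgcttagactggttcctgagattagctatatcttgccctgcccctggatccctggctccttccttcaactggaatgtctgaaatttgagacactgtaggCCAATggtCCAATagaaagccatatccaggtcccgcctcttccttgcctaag
Dusp1: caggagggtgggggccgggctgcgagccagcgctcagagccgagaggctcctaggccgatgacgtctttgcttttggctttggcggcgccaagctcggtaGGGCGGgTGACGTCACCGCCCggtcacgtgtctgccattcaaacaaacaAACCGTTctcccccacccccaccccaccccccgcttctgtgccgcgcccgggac

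The 250 bases printed for Agt hold 0 CpG dinucleotides and a TATA box that begins 30 bases before the transcript start. The Dusp1 stretch of 203 bases holds 19 CpGs and a full cAMP response element with a GC box on either side. Gstm1 and Gstm2 differed in this respect, with 13 CpGs in 250 bases and 2 CpGs in 217 bases, although both had a fold of means of 2.74. The 192 bases of Lcn2 hold 2 CpGs and a single GC box.

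A promoter window here is the 250 bases before and 50 after the RefSeq start, and it was called CpG-rich at a GC content of at least 50% and a CpG count of at least 0.6 of that expected from its C and G content. By this measure 22 of 64 member promoters (34.4%) were CpG-rich, against 4719 of 6493 (72.7%) of all eligible promoters. The median ratio of observed to expected CpG was 0.33 in members and 0.80 in eligible genes, and the median GC content was 53.3% and 60.7%. Among genes of 5 to 50 TPM in WT the shares were 34.4% of 61 member promoters and 73.0% of 3851 eligible promoters, so the gap was as wide at the lower levels at which most members lie.

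The share varied with the members' roles. It was 10 of 13 in cytoskeletal, signalling and trafficking genes, 4 of 5 in cell cycle and transcription genes and 2 of 2 in immediate early genes. It was 1 of 12 in sperm and spermatid genes, 2 of 7 in secreted proteins and lipid carriers, 1 of 6 in detoxification and metabolism genes, 1 of 8 in genes of little-known function and 0 of 5 in genes with provisional symbols. Over all eligible genes the CpG-rich share changed along with the ratio of mean KK to mean WT TPM: it was 80.4% below a ratio of 0.8, 76.6% from 0.8 to 1, 73.1% from 1 to 1.2, 59.2% from 1.2 to 1.5, 184 of 368 promoters from 1.5 to 2, and 38.8% at 2 or more. The share thus changed from class to class, and all 83 members lie in the top class, which holds 154 genes.

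The leading transcripts of the members were also shorter. Their median length was 1172 bases with 5 exons, against 2099 bases with 8 exons for eligible genes, and the median gene span was 11344 against 22194 bases. Median length fell from 3010.5 bases in eligible genes below a ratio of 0.8 to 1157 bases in those at 2 or more, with 1656 bases from 1 to 1.2 and 1757 bases from 1.2 to 1.5 out of that order. These are descriptions over genes, which are not independent replicates, and no test was made of them.

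**Figure D1:**
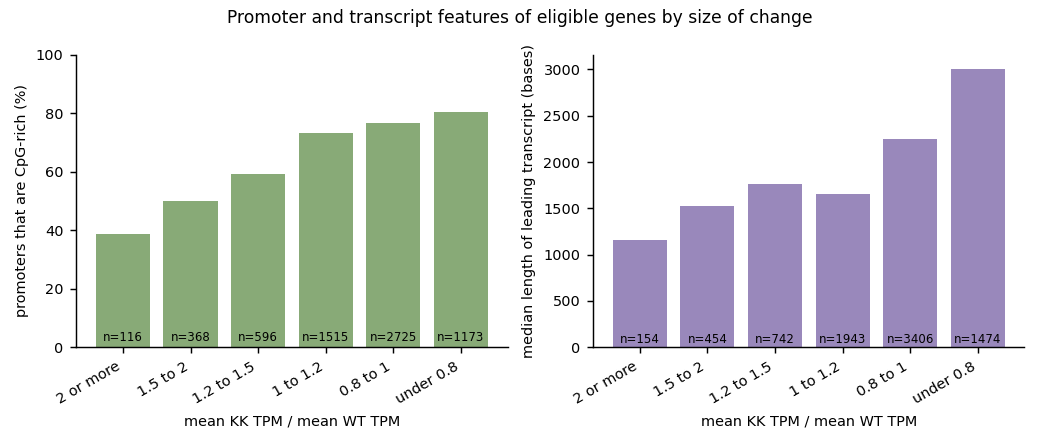
Share of promoters that are CpG-rich (left, in percent) and median length of the leading transcript (right, in bases). Eligible genes are in 6 classes of mean KK over mean WT TPM. Each bar carries the number of promoters (left) or of all genes in the class (right). A transcript length was available for 8128 of the 8173 eligible genes. The CpG-rich share goes from 80.4% in the class below 0.8 to 38.8% in the class at 2 or more.

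Shares of promoters holding each motif are given for members first and eligible genes second. Of the motifs searched, the GC box (GGGCGG) was in 29.7% and 62.3%, the CCAAT box (CCAAT) in 32 of 64 and 39.4%, and the TATA box (TATAAA) in 15.6% and 6.47%. The cAMP response element (TGACGTCA) was in 4.69% and 3.85%, the AP-1 site (TGANTCA) in 6.25% and 4.34% and the RFX motif (GTTGCC) in 15.6% and 14.9%. The site of NR5A1 (CAAGGTCA) was in 3 of 64 member promoters against 1.02% of eligible ones, and the core of A-MYB (AACNGTT) in 5 of 64 against 3.43%. No 2 matches in the printed sequences share bases. A match says only that the letters are in the window.

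Members were mostly genes of moderate level. Their mean WT level had a median of 13.0 TPM (range 5.54 to 248), below the 34.9 TPM of eligible genes, so the group is well expressed only in the sense of its minimum. In KK their median was 35.3 TPM (range 13.2 to 552), close to the eligible median of 34.5 TPM. Members were 31 of 1240 eligible genes (2.5%) at 5 to 10 TPM in WT, 23 of 1520 (1.51%) at 10 to 20 TPM, 24 of 2114 (1.14%) at 20 to 50 TPM and 5 of 3299 (0.152%) above that. Summed over all members, the level was 1803 and 1825 TPM in WT and 4624 and 4707 TPM in KK, or 0.180% and 0.182% of all transcripts against 0.462% and 0.471%.

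The lower KK value stood at a median of 2.25 times the higher WT value, with a range of 2.002 to 7.02. It was at least 2.5 times in 19 members and at least 3 times in 6, namely Lcn2, Pln, Agt, Crip2, Bhmt and Stambpl1. Replicates of a genotype lay close together, which the rule favours because it sets the lower KK value against the higher WT value. The higher WT value was a median of 1.08 times the lower, and 1.05 times in KK. The widest pairs were 1.52 times for Tmem262 in WT and 1.48 times for Itgad in KK, and 17 members in WT and 4 in KK were over 1.2 times.

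In edgeR's quasi-likelihood test, 83 of 83 members were called higher in KK at an adjusted p of 0.05, where 22.0% of all 16571 genes tested were called higher, 21.7% lower and 43.7% in either direction. Among the 8172 eligible genes tested 19.3% were called higher and 35.8% lower (1579 and 2922 genes); that balance turned with library size alone as the scale, which gave 2201 higher and 2062 lower. Both KK values were above both WT values in 34.6% of all genes tested, a share against which the members cannot be read because the rule required it of them. Their log2 fold change had a median of 1.29 and ran from 0.53 for Itgad to 2.83 for Lcn2, and it was under 1 in 8 members. These counts are not corrected for transcript length: with an offset for effective length Itgad moved from 0.53 to 1.49, Afap1 from 0.72 to 1.23, Nabp1 from 0.92 to 1.32, Dusp1 from 0.99 to 1.37 and Arhgef2 from 0.93 to 1.21, and Tmem176a from 1.57 to 1.22.

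**Figure D2:**
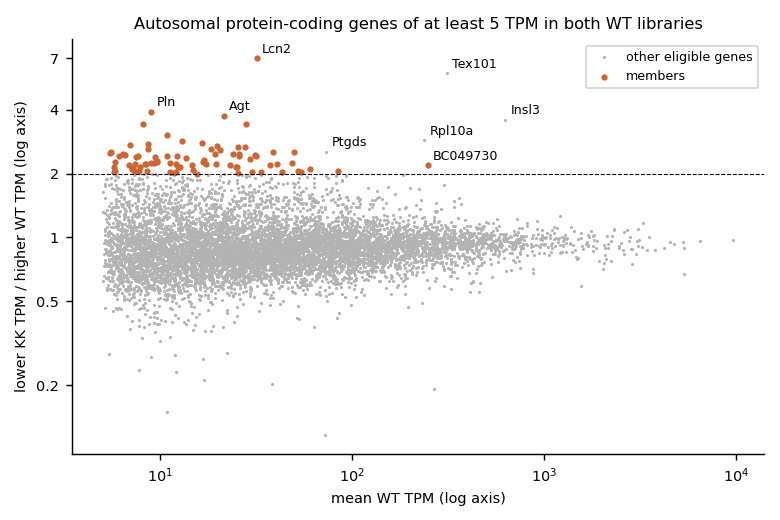
Lower KK TPM over higher WT TPM (log axis) against mean WT TPM (log axis) for autosomal protein-coding genes of at least 5 TPM in both WT libraries, each point 1 gene, with the 83 members in orange. Members lie above the dashed line at 2, mostly below 50 TPM, with Lcn2 highest at 7.02 and BC049730 farthest right at 248 TPM; the 4 labelled genes that the rule left out are grey.

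Genes on either side of the threshold had nearly the same ratios. Just inside were Tex26 with a ratio of 2.002, Afap1 with 2.008, Pdilt with 2.024, and Tex38 and Ccnd3 with 2.032. Just outside were Nkx2-6 with 1.998, Glt6d1 with 1.997, Pex11a with 1.991, Mgst1 with 1.989 and Rnase10 with 1.987. On the side of level, Itgad, E2f5 and Asb15 had lower WT values of 5.12, 5.14 and 5.32 TPM, while Tmem176b, Ly6e and Vcam1 missed the minimum with 4.97, 4.90 and 4.61 TPM and had ratios of 3.77, 4.05 and 2.05.

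The largest ratio of a single gene was in the secreted proteins and lipid carriers, a class of 8 members with a median fold of means of 2.74. Lcn2 encodes a lipocalin that binds iron-carrying siderophores. It was at 31.6 and 32.2 TPM in WT and at 227 and 226 TPM in KK. Both KK values were thus 7 times the WT values with almost no spread within a genotype, and its log2 fold change was 2.83 ± 0.07 (SE, n = 2 against 2). Its counts were also scaled to the library total with edgeR's TMM factors (TMM-scaled CPM). On that scale Lcn2 held 14.9 ± 0.27 CPM in WT against 106 ± 0.40 CPM in KK (SD, n = 2 each).

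Agt encodes angiotensinogen, the precursor of the angiotensins. It was at 21.2 and 21.7 TPM in WT and at 81.6 and 88.7 TPM in KK. Apoe, a carrier of lipids and cholesterol, was at 17.5 and 15.6 TPM in WT and at 48.9 and 51.2 TPM in KK. Apoh, a phospholipid-binding plasma glycoprotein, was at 17.9 and 18.8 TPM in WT and at 50.6 and 49.0 TPM in KK. The genotypes lay far apart in all 3 genes compared with the gaps between replicates. The other members of the class were Fabp3, a fatty acid-binding protein, Selenop, which carries selenium, Tmeff1 and Fam3b, with folds of means between 2.52 and 2.76.

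Among the members were 3 small membrane proteins that regulate ion pumps. Pln, phospholamban, restrains the calcium pump of the endoplasmic reticulum and was at 10.4 and 7.58 TPM in WT and at 40.9 and 41.9 TPM in KK. Its WT values differed by more than its KK values, and the genotypes did not come near each other. Fxyd1 and Fxyd2 are FXYD proteins that associate with the sodium-potassium pump. Fxyd1 was at 7.48 and 9.91 TPM in WT and at 30.1 and 26.0 TPM in KK. Fxyd2 was at 5.98 and 8.07 TPM in WT and at 22.1 and 23.3 TPM in KK. Their log2 fold changes of 1.69 ± 0.28 and 1.70 ± 0.24 (SE, n = 2 against 2) had the 2 widest standard errors among the members.

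Detoxification and metabolism held 6 members with a median fold of means of 2.66. Bhmt, which remethylates homocysteine with betaine, was at 8.35 and 7.94 TPM in WT and at 28.7 and 29.6 TPM in KK. Gstm1, a glutathione transferase of the mu class, was at 51.3 and 48.3 TPM in WT and at 129 and 143 TPM in KK. Gstm2, its neighbour and paralogue, was at 23.3 and 28.5 TPM in WT and at 69.2 and 72.4 TPM in KK. Both paralogues kept a wide gap between genotypes, at different levels. Akr1cl, an aldo-keto reductase, was at 12 and 13.6 TPM in WT and at 29.2 and 33.0 TPM in KK. Pde4a, a cAMP phosphodiesterase, and Hspe1, the mitochondrial co-chaperonin, had folds of means of 2.503 and 2.582.

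Agt, Akr1cl, Gstm1 and Gstm2 are 4 of the 23 genes on the list of Leydig cell markers, the steroid-producing cells between the tubules. Of the 21 listed genes tested, 16 were higher and 0 lower in KK, at a median log2 change of 0.95. The summed level of the whole list was 995 and 1032 TPM in WT and 3096 and 3196 TPM in KK, with 0 of the 23 genes at 0 in all libraries. Insl3, which made up most of that sum, was at 611 and 642 TPM in WT and at 2314 and 2399 TPM in KK. Without Insl3, Ptgds and the members, the 17 remaining markers summed to 203 and 204 TPM in WT and to 281 and 272 TPM in KK. Lists of other cell types that hold 0 members also had more genes higher than lower in KK. Of 14 peritubular and endothelial markers tested 8 were higher and 0 lower (median log2 change 0.96, sums of 33.6 and 34.2 TPM in WT and 49.7 and 54.2 TPM in KK). Of 25 spermatogonial markers 11 were higher and 2 lower (median 0.80, sums of 106 and 153 against 128 and 139 TPM, which overlap). Of 26 early meiosis genes 14 were higher and 6 lower (median 0.49, sums of 7429 and 7547 against 8374 and 8470 TPM). Tex101, left out by the rule, is on that list, at 312 and 311 TPM in WT and 1852 and 1868 TPM in KK. Its difference between genotypes was larger than that of the sums, so the other early meiosis genes together were not higher in KK. Of 23 Sertoli cell markers 5 were higher and 5 lower. The part of any of these cell types in the members' levels was not tested.

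Hsd3b1, a steroid dehydrogenase, was at 3.56 and 4.31 TPM in WT and at 13.9 and 14.5 TPM in KK. Cyp17a1, another enzyme of steroid synthesis, was at 28.7 and 34.1 TPM in WT and at 46.0 and 45.3 TPM in KK, and Star, which brings cholesterol into mitochondria, was at 4.27 and 4.07 TPM and at 5.99 and 6.32 TPM. Of these 3 genes, Hsd3b1 alone had KK values over 2 times its WT values.

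Immune and interferon-linked members were 5, with a median fold of means of 2.47. Isg20, an exonuclease induced by interferon, was at 22.7 and 17.0 TPM in WT and at 61.2 and 69.6 TPM in KK. B2m, the light chain of MHC class I, had a fold of means of 2.35. Klrb1, named for a lectin-like receptor of lymphoid cells, had one of 2.47. In every library 100% of its transcripts were assigned to Klrb1-202, annotated as a processed transcript and not as coding. Tmem176a and the integrin gene Itgad are described with their isoforms. Apoe is also on the list of 16 macrophage and immune markers, of which 9 were tested, 4 were higher and 0 lower. That list summed to 26.8 and 28.1 TPM in WT and to 65.1 and 70.8 TPM in KK, with Apoe the largest term. C1qb, a complement gene of macrophages, was at 1.23 and 2.57 TPM in WT and at 3.78 and 5.05 TPM in KK. H2-Ab1, on the same list, was at 3.82 and 5.67 TPM in WT and at 5.56 and 6.37 TPM in KK. Its log2 fold change of 0.22 ± 0.24 (SE, n = 2 against 2) did not pass the test. Csf1r, Adgre1 and Tyrobp were under 1 TPM in every library. Csf1r, a receptor of macrophages, was at 0.04 and 0.02 TPM in WT and at 0.29 and 0.21 TPM in KK. Adgre1 was at 0.43 and 0.15 TPM in WT and at 0.36 and 0.2 TPM in KK, and Tyrobp was listed at 0 in 3 libraries and at 0.28 TPM in KK replicate 2. Ptprc and Mrc1 had lower values in KK, with log2 fold changes of -0.97 ± 0.55 and -0.12 ± 0.32 (SE, n = 2 against 2), and neither passed the test. The part of macrophage RNA in these levels was not tested.

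Immediate early genes, which are transcribed within minutes of a stimulus, gave 2 members. Dusp1, a phosphatase of MAP kinases, was at 5.36 and 5.71 TPM in WT and at 14.2 and 14.4 TPM in KK. Junb, a subunit of AP-1, was at 7.24 and 7.46 TPM in WT and at 15.3 and 15.4 TPM in KK. Replicates of both genes lay close together. Of the 33 listed immediate early genes tested, 16 were higher and 1 lower in KK, at a median log2 change of 0.74, and the list summed to 206 and 210 TPM in WT and to 273 and 295 TPM in KK. Fos, a partner of Junb, had a log2 fold change of 1.30 ± 0.11 (SE, n = 2 against 2), while Jun was at 14.2 and 14.2 TPM and at 16.1 and 14.3 TPM.

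Genes of the cell cycle, DNA repair, nuclear envelope and transcription were 8, with a median fold of means of 2.53. Ube2c, the ubiquitin-conjugating enzyme of the anaphase-promoting complex, was at 37.3 and 40.2 TPM in WT and at 102 and 110 TPM in KK. Ccnd3, a D-type cyclin, was at 35.0 and 32.1 TPM in WT and at 71.2 and 75.6 TPM in KK. Both had among the highest levels in the group, and their genotypes were clearly apart. Nrm, a protein of the inner nuclear membrane, and the transcription factor E2f5 had folds of means of 2.75 and 2.92. Nabp1, a single-stranded DNA-binding protein, Nutm1, the imprint regulator Zfp57 and Arid3a lay between 2.30 and 2.56. Ube2c is on a list of 39 ubiquitin-conjugating and deubiquitinating genes, of which 9 were higher and 11 lower, at a median log2 change of -0.07.

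The class of cytoskeletal, signalling, ubiquitin and membrane trafficking genes held 15 members with a median fold of means of 2.73. Crip2, a LIM-domain protein, was at 27.1 and 28.9 TPM in WT and at 99.5 and 102 TPM in KK. Stambpl1, a deubiquitinating enzyme, was at 11.1 and 10.7 TPM in WT and at 33.9 and 41.8 TPM in KK. Tubb6, a beta-tubulin, was at 8.6 and 8.77 TPM in WT and at 25.0 and 24.3 TPM in KK. These were the 3 highest ratios of the class. Arhgef2, whose product binds microtubules, had the highest level, with 63.5 and 57.4 TPM in WT and 134 and 146 TPM in KK. The rest of the class ran from 2.16 for Retreg3, a reticulophagy regulator, to 2.89 for Ecsit, a mitochondrial signalling protein.

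**Figure D3:**
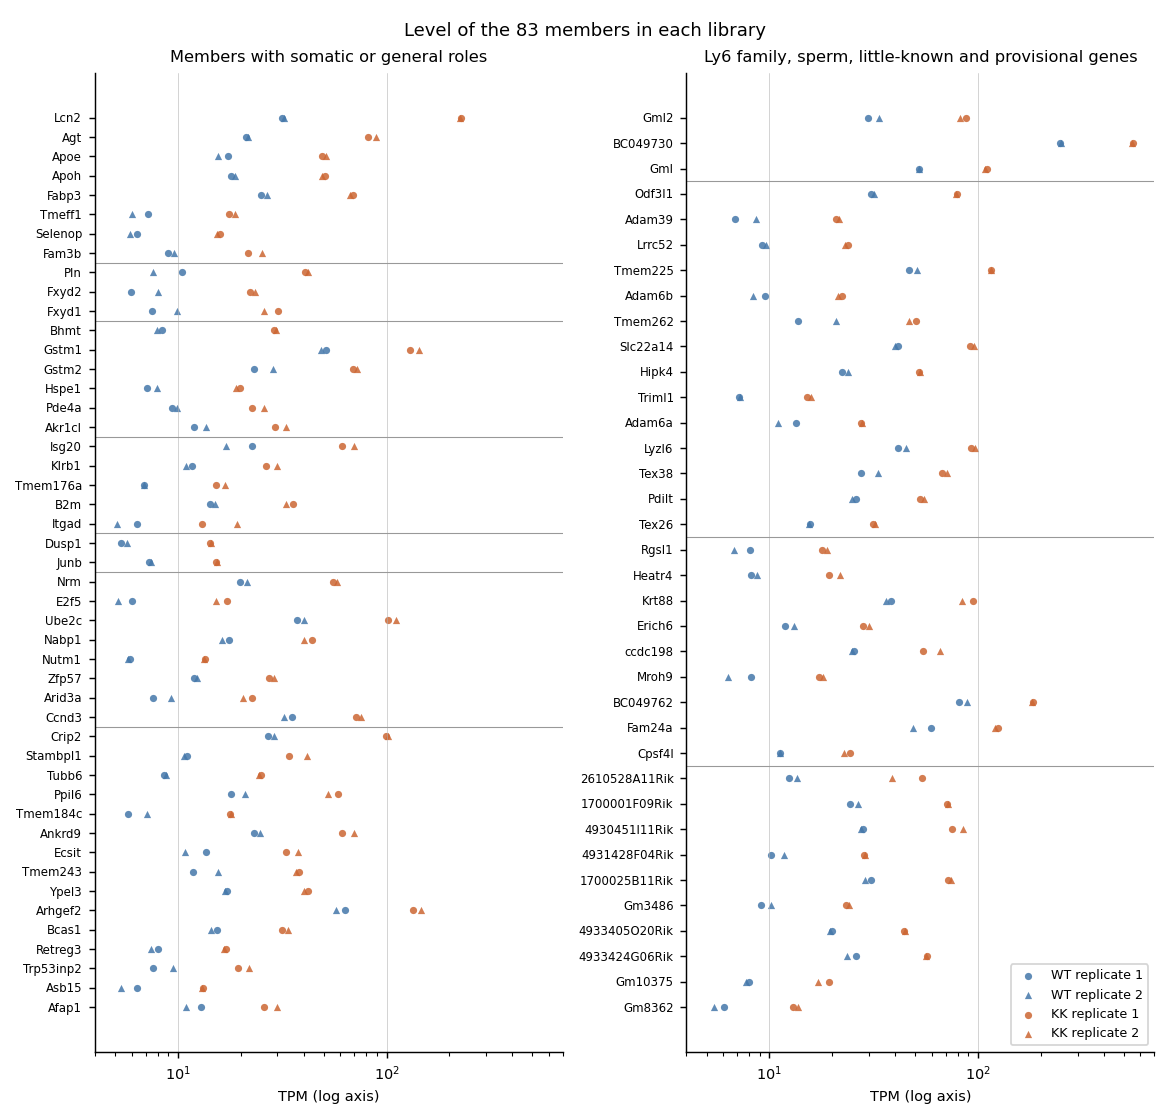
TPM (log axis) of the 83 members in WT replicate 1 (blue circles), WT replicate 2 (blue triangles), KK replicate 1 (orange circles) and KK replicate 2 (orange triangles), grouped by role with lines between the groups. Every member's KK points lie to the right of its WT points, as the rule requires, and the widest gap is that of Lcn2, from 32.2 to 226 TPM.

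Sperm and spermatid genes were the 14 members that belong most plainly to the germ line, with a median fold of means of 2.29 and a highest ratio of 2.45. Odf3l1, a paralogue of an outer dense fibre gene, was at 30.6 and 31.9 TPM in WT and at 79.1 and 78.2 TPM in KK. Tmem225 was at 46.8 and 51.1 TPM in WT and at 115 and 115 TPM in KK. Slc22a14, a transporter of the sperm tail, was at 41.2 and 40.2 TPM in WT and at 91.4 and 96.1 TPM in KK. In these 3 genes the gap between genotypes was many times that between replicates.

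Lyzl6, a lysozyme-like sperm protein, was at 41.4 and 45.2 TPM in WT and at 92.4 and 97.2 TPM in KK. Pdilt, a testis chaperone for sperm surface proteins, was at 26.0 and 25.0 TPM in WT and at 52.5 and 54.9 TPM in KK. Adam6a, a surface protein required for sperm function, was at 13.4 and 10.96 TPM in WT and at 27.4 and 27.7 TPM in KK. These 3 lay close to the threshold, with ratios of 2.04, 2.02 and 2.05. Hipk4, a kinase of spermatid head shaping, Lrrc52, a subunit of a sperm potassium channel, Adam39, Adam6b, Tmem262, Triml1, Tex38 and Tex26 had folds of means from 2.04 to 2.79.

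Lyzl6 was the single member among 58 listed spermatid genes, of which 32 were higher and 15 lower in KK at a median log2 change of 0.20. The sum of that list was 49239 and 49036 TPM in WT and 47110 and 46387 TPM in KK. Adam6a and Pdilt were on a list of germ cell surface genes, of which 19 of 30 were higher and 5 lower, with a median of 0.26. The median gene of both lists had a smaller change than any of these members, which follows from the rule that chose them.

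A further 3 members belong to the Ly6 family of small proteins held at the cell surface by a GPI anchor. BC049730 had the highest level of all members, at 247 and 249 TPM in WT and at 555 and 548 TPM in KK. Gml was at 51.9 and 52.3 TPM in WT and at 111 and 108 TPM in KK. Gml2 was at 29.6 and 33.7 TPM in WT and at 87.7 and 81.6 TPM in KK. The WT replicates of Gml and BC049730 were nearly equal. In counts BC049730 had a log2 fold change of 1.12 ± 0.04 (SE, n = 2 against 2), the smallest standard error of the group.

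Among 9 members of little-known function, BC049762 was at 81.2 and 88.5 TPM in WT and at 183 and 181 TPM in KK. Fam24a was at 59.5 and 48.8 TPM in WT and at 124 and 121 TPM in KK. Krt88, a keratin by name, was at 38.2 and 36.4 TPM in WT and at 94.5 and 83.6 TPM in KK. All 3 had ratios of 2.04 to 2.19. A further 10 members have provisional symbols, with folds of means of 2.25 to 3.56. The highest ratios among these were 2610528A11Rik, at 12.5 and 13.6 TPM in WT and 54.2 and 38.6 TPM in KK, 1700001F09Rik, at 24.3 and 26.5 against 71.2 and 71.4 TPM, and 4930451I11Rik, at 28.1 and 27.4 against 75.04 and 85.01 TPM.

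Members were spread over every autosome. Chromosome 7 held 11 of its 650 eligible genes (1.69%), chromosome 14 held 6 of 314 (1.91%) and chromosome 13 held 1 of 275 (0.364%). Within 100000 bases of another member lay 8 members in 4 pairs, namely Gstm1 with Gstm2, Gml with Gml2, Adam6a with Adam6b, and Ypel3 with 4930451I11Rik.

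Relatives beside the paralogue pairs had other values. Gstm1 and Gstm2 share 85.6% of 1011 aligned transcript bases and 73.8% of 145 aligned promoter bases. Gstm5, the germ cell member of that cluster, was at 4809 and 4657 TPM in WT and at 4612 and 4450 TPM in KK, with a log2 fold change of -0.07 ± 0.04 (SE, n = 2 against 2) and an edgeR adjusted p of 0.131. Gstm7 had 6.98 and 6.04 TPM in WT and 5.83 and 7.53 TPM in KK. Gstm4, on the far side of Gstm1, had 2.5 and 3.1 TPM in WT and 4.76 and 6.19 TPM in KK, with an edgeR adjusted p of 0.089. Whether Gstm5 and Gstm1 differ in their change was not tested.

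Gml and Gml2 face away from each other with 256 bases between them (chr15:74813452-74834871 for the pair) and share 91.9% of 804 aligned transcript bases. Ly6k, next to Gml, was at 359 and 377 TPM in WT and at 365 and 356 TPM in KK. Ly6d, farther along, was at 0.34 and 0.64 TPM in WT and at 2.08 and 4.41 TPM in KK, below the members' minimum. On chromosome 7, BC049730 (chr7:24709242-24714535) lies between Tex101 and Gm4763. Tex101 was at 312 and 311 TPM in WT and at 1852 and 1868 TPM in KK, and Gm4763 was at 194 and 205 TPM in WT and at 355 and 350 TPM in KK. The 3 neighbours thus had folds of means of 5.98, 2.22 and 1.77 in a row, while Xrcc1 beyond them had 0.854.

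**Figure D4:**
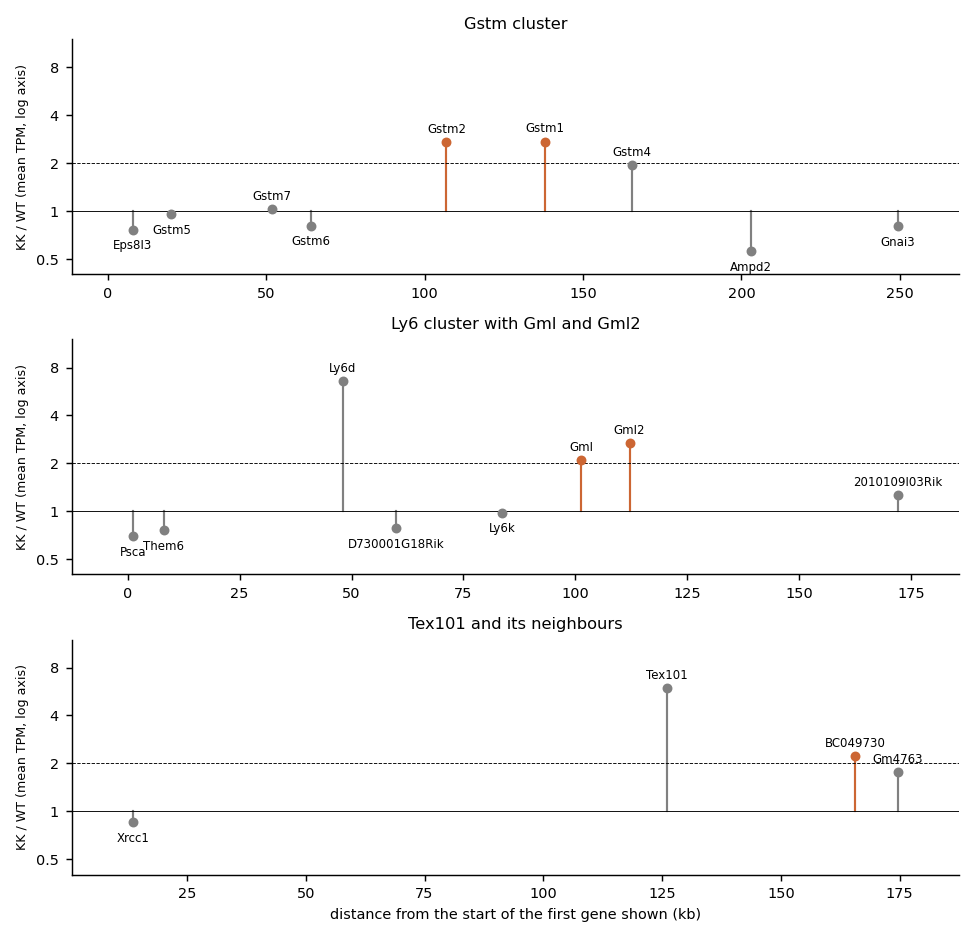
Ratio of mean KK to mean WT TPM (log axis) of protein-coding genes against the distance of each gene's middle from the start of the first gene shown (kb) at 3 loci, with members in orange and other genes in grey and the dashed line at 2. Relatives near the members include Gstm5 at 0.957 and Ly6k at 0.98, and also Gstm4 at 1.955 and Ly6d at 6.622. At the third locus Tex101, BC049730 and Gm4763 fall in order from 5.98 to 1.77.

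Near-identical copies limit some of these values, since reads cannot always be placed. Adam6a and Adam6b share 94.8% of 2511 aligned transcript bases and 100% of 199 aligned promoter bases. The provisional genes 1700001F09Rik, Gm3486 and Gm10375 share 99.0 to 99.4% of their aligned bases, so their separate values are uncertain. Estimated counts were not whole in 18 members (21.7%), against 19.9% of eligible genes.

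Exons of another annotated gene overlapped those of 25 members (30.1%), against 38.9% of eligible genes, and the unstranded reads cannot separate them. Dusp1 overlaps Ergic1, which was at 15.5 and 17.95 TPM in WT and at 29.2 and 27.5 TPM in KK. Tmem176a overlaps its relative Tmem176b, which was at 5.59 and 4.97 TPM in WT and at 23.0 and 21.1 TPM in KK. Itgad overlaps 4931431B13Rik, which was at 3.7 and 3.77 TPM in WT and at 9.47 and 12.2 TPM in KK. Hspd1, which overlaps Hspe1, had a log2 fold change of 0.61 ± 0.15 (SE), and Prdx2, which overlaps Junb, one of 0.33 ± 0.11 (SE). That of Ergic1 was 0.52 ± 0.10 (SE). All 5 of these overlapping genes passed the edgeR test as higher. The part of the overlap in the members' values was not tested. Pln overlaps Cep85l, which was at 55.2 and 55.8 TPM in WT and at 54.2 and 53.3 TPM in KK, and Ccnd3 overlaps Bysl, which was at 42.1 and 41.5 TPM in WT and at 34.6 and 36.5 TPM in KK, so for these members the overlapping gene was not higher in KK.

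Isoform tables showed which annotated transcripts carried the members. In 17 members a single isoform is annotated. Of the other 66, 62 had the same leading isoform in both genotypes and 4 had another, namely Zfp57, Tmem176a, Itgad and Afap1. The isoform that led in WT was itself at least 2 times as high in both KK libraries as in both WT libraries in 67 members and not in 16. Its share of the gene's transcripts fell by at least 10 percentage points, without overlap of the genotypes, in 4 members (Dusp1, Tmeff1, Tmem176a and Afap1) and rose so in 0. These 2 counts cannot be set against each other. The isoform was picked for its high WT share, and where that share was 100%, as in Tubb6 and Nrm, no rise was possible. The members in this and the next paragraph were singled out after their isoform values were seen.

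Dusp1-202, the coding transcript of 1990 bases, was at 5.07 and 5.39 TPM in WT and at 9.82 and 10.7 TPM in KK. Dusp1-201, a processed transcript of 421 bases, was listed at 0 in both WT libraries and at 3.56 and 3.35 TPM in KK. As the reads were assigned, part of the ratio of Dusp1 lay in this short non-coding isoform. A short transcript at so low a level draws few reads. Dusp1 also overlaps Ergic1, which was higher in KK, and unstranded reads cannot separate the 2 genes. Afap1-201, of 6618 bases, was at 6.77 and 6.67 TPM in WT and at 8.07 and 7.65 TPM in KK. Afap1-202, of 1994 bases, was at 3.44 and 4.10 TPM in WT and at 16.3 and 20.9 TPM in KK. Nearly all of the gain of Afap1 was thus in its shorter transcript.

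Itgad-205, of 653 bases, was at 2.97 and 0.43 TPM in WT and at 8.67 and 14.8 TPM in KK. Its values varied widely between replicates, and so did those of the other Itgad isoforms. Tmem176a-202 was at 2.77 and 3.34 TPM in WT and at 13.6 and 11.1 TPM in KK, while Tmem176a-204 was at 3.94 and 3.07 TPM and at 0.54 and 3.81 TPM. For Zfp57 the isoform shares differed as much between replicates as between genotypes, with Zfp57-201 at 82.5% and 0.02% in WT and at 37.8% and 83.2% in KK, so no shift between genotypes can be read from them.

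**Figure D5:**
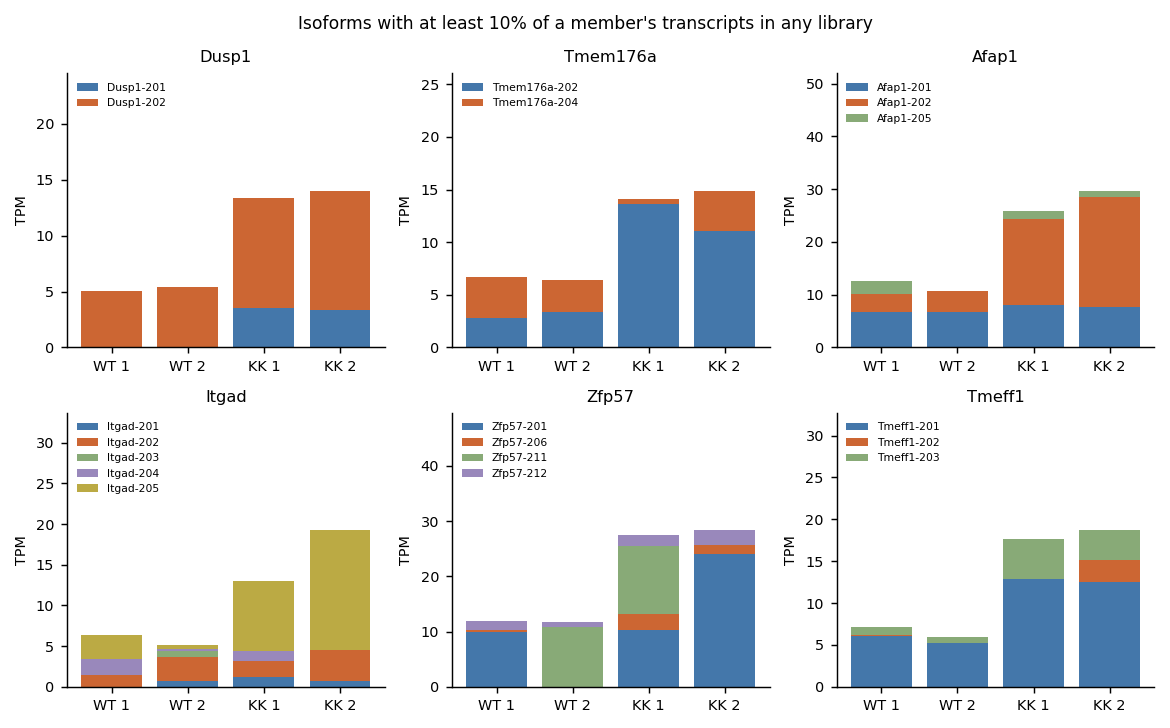
TPM of each isoform holding at least 10% of a gene's transcripts in any library, stacked per library, for 6 members. In Afap1 the gain is in Afap1-202 (orange, 16.3 and 20.9 TPM in KK), in Dusp1 the isoform Dusp1-201 (blue) is listed at 0 in WT, and in Zfp57 and Itgad the makeup differs between replicates of a genotype.

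A short isoform gives more TPM per read, so a shift between isoforms moves a gene's TPM and its read count differently. Counts scaled to the library total, with no correction for length, had a ratio of KK to WT means below 2 in 2 members, Itgad with 1.53 and Afap1 with 1.7485. The TPM ratio was over 1.2 times the count ratio in 4 members (Itgad, Afap1, Nabp1 and Dusp1) and under the inverse of that in Tmem176a. In the remaining members both scales gave ratios within 1.2 times of each other.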

How the data were processed

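RNA-seq libraries of 4 samples (2 WT, 2 KK, grouped by title) were used. For genes and isoforms alike, the authors deposited TPM, expected counts and effective lengths, per the file headers, with each isoform's percent of its gene's transcripts. The TPM deposited by the authors are scaled to a fixed total after division by effective length, so the level of any gene depends on all others. Bowtie, mm10 and GRCm38 are the tool and builds listed, without a role, per the submitters' processing notes. Which quantifier and annotation release were used is not given in the sources used here. Of 55364 gene identifiers, 55104 were found in GENCODE M21, which gave gene type, position and exons. Promoters came from RefSeq.

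Expected counts were rounded and tested in R 4.3.3 with edgeR 4.0.16 (TMM factors, default expression filter, quasi-likelihood fit on genotype, Benjamini-Hochberg adjustment at 0.05, standard error as the log2 fold change over the square root of F), after it was tested on simulated data. DESeq2 1.42.0 and limma 3.58.1 on log2(TPM + 1) were alternatives, with other scaling, filters, a length offset, a replicate block and each library left out. The total per library was 17970207 to 19438570 counts, and members had 21 to 7209 counts in a library, which limits the precision of the lowest. Replicates differed by more than sampling noise (chi-square per gene of 2.84 in WT and 2.93 in KK), so none was taken for a copy.

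The members, gene lists and alternatives were chosen with earlier results of these data known, and roles were assigned by hand after the member names were seen. Full values were given for the 15 members with the largest ratio, the 15 with the highest WT level and the 11 on a gene list. No test was made over the members.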

Additional observations from a re-analysis of the deposited data

How the results depend on the processing

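All 83 members were called higher in KK under the main edgeR fit and under all 12 alternatives, and each of the 996 member-by-alternative results kept its direction and its side of the threshold. The largest adjusted p of a member was 4.8e-04 in the main fit and 0.0334 over the alternatives. Over the whole table, genes called higher numbered 3648 in the main fit, 2033 with DESeq2 and 2275 with limma; genes called lower numbered 3589, 1551 with limma and 2075 with the effective length offset. With library size alone as the scale, which moved the median of all genes by under 0.1, 64.2% of calls were higher, against 50.4%. Leaving out each library in turn gave 2916 to 3095 higher and 3009 to 3457 lower calls and moved no member's fold by over 1.5 times; the farthest was Tmem262, by 1.29 times. These 4 of the 12 alternatives leave 1 genotype with a single library, which is assumed to vary like the other genotype. The rule chose the members on the values of these same libraries. Their kept calls and directions under the alternatives thus describe that choice and are not a test of the members. The fold of Itgad moved by over 1.5 times with the effective length offset (log2 0.53 to 1.49) and with limma (1.33). The rule found 195 genes with a minimum of 1 TPM, 52 with 10 TPM, 398 at 1.5 times, 6 at 3 times and 150 between genotype means; without 1 library it found 115 to 139, with 130 without WT replicate 1 and 139 without WT replicate 2. Applied to TMM-scaled CPM it found 87 genes, of which 59 were members: 13 of the members lost had under 5 CPM in a WT library and 11 a CPM ratio under 2. With the replicate number as a block, 3675 genes were higher and 3634 lower, and 83 members were higher; same-numbered libraries did not deviate together (correlation -0.058), so the numbers are not taken as pairs. With the promoter start within 200 bases of the leading transcript start, a check chosen after the data were seen, 35.1% of member and 74.4% of eligible promoters were CpG-rich. With 2 libraries a genotype and no named animals, the spread behind these errors may be technical.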

Other observations

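The rule turned around found 5 genes. Besides Ddx4 these were Snapc4, at 11.2 and 12.7 TPM in WT and 5.45 and 5.52 TPM in KK, Shank2, at 15.2 and 14.4 against 7.04 and 5.56 TPM, Pmp2, at 5.59 and 5.34 against 2.57 and 1.57 TPM, and Gm8890, at 10.1 and 12.6 against 4.27 and 4.93 TPM. Among all eligible genes the median log2 ratio of TPM was -0.07, with both KK values above both WT values in 2308 and below them in 3632. The lower side of this balance rests on the scale: with library size alone, the median log2 fold change of eligible genes in edgeR was 0.00025, against -0.08 with TMM factors, and 2201 were called higher and 2062 lower.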
